A study of Mus musculus with 12 samples.

Results

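Transcript levels of 10 genes, the signalling genes Tgfb1, Tgfb2, Tgfb3, Inhbb, Tgfbr1, Tgfbr2, Smad3, Smad7 and Skil of the transforming growth factor beta (TGF-beta) pathway and Tsc22d1, were followed in mammary glands of lactating mice, either deficient in butyrophilin 1a1 (Btn1a1) or wild-type. The genes were taken by symbol from a table of 11834 genes, and all 10 were in it. PolyA RNA was sequenced from whole glands of C57BL/6 females in lactation 1, with 1 library per mouse, from 5 wild-type (WT) and 7 Btn1a1-/- (KO) mice. The glands of WT replicates 1, 4 and 5 and of KO replicates 1, 2, 5, 6 and 7 were taken on day 10. Day 9 gave WT replicate 2, day 8 gave KO replicate 3, and day 11 gave WT replicate 3 and KO replicate 4. Per the labels, mutant mice came from matings of heterozygous pairs kept apart from the wild-type harems, and each mouse had 1 of 2 diets that are not given by mouse, so genotype cannot be told apart from breeding line or diet.

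TGF-beta ligands are secreted as latent complexes, and once freed they bind a type II receptor that recruits and activates a type I receptor. The type I receptor phosphorylates Smad3 and Smad2, which enter the nucleus with Smad4 and change transcription, while Smad7, Skil and Ski hold the signal back. In the mammary gland the pathway is known for restraining ductal growth, and Tgfb3 is known to be induced in the epithelium when milk stasis starts involution. Tsc22d1 (TGF-beta stimulated clone 22) encodes leucine zipper proteins that TGF-beta induces in many cells, and long and short isoforms are known to act differently on the survival of mammary epithelial cells.

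Btn1a1 itself, which encodes a membrane protein of secreted milk fat globules, lay between 11.03 and 11.23 log2 CPM (CPM, counts scaled to a library total of 1e6) in WT and between 5.10 and 6.02 in KO, which fits the labels of all 12 libraries. Markers of secretory epithelium such as Csn2, Wap and Lalba summed to between 257039 and 258390 CPM in WT and between 257394 and 260256 CPM in KO. All libraries share a common distribution of values, so a sum carried by the most abundant genes is largely set by that distribution. These sums therefore cannot show whether secretory content was alike in the groups. No neutrophil marker of 6 and no T or NK cell marker of 9 was in the table. The approximate depth, read from the steps between low values, ran from 17.1 to 30.4 in WT and from 23.2 to 34.7 in KO, in units of 1e6 reads. In a bulk gland, fewer cells of a type cannot be told apart from less RNA per cell.

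Tsc22d1 rose in KO, and Skil, which encodes the Smad-binding repressor SnoN, passed the test close to its threshold. The other 8 genes did not pass. Of the 10 genes 2 were called (adjusted p under 0.05, limma over all genes), both higher in KO, against 9.36% of all 11834 genes and 4.84% called higher. For 1 of the 10, Tsc22d1, all KO values lay above all WT values, and 0 genes had all KO values below. Such separation held for 5.43% of all genes, 2.69% with KO above and 2.74% with KO below. At an unadjusted p under 0.05 there were 5 higher and 0 lower, where 26.6% of all genes passed, 12.2% higher and 14.4% lower. The authors' deposited table also has 2 of the 10 past an adjusted p of 0.05, 0 of them lower, beside 9.64% of all genes. The median log2 change of the 10 was 0.24, beside -0.03 over all genes.

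Tsc22d1 held 4.32, 4.51, 4.60, 4.67 and 4.67 log2 CPM in WT replicates 1 to 5. In KO it ran from 5.06 through a median of 5.14 to 5.40. Every KO library lay above every WT library, with a gap of 0.38 between the highest WT and the lowest KO value. The means were 4.55 ± 0.14 (SD, n = 5) and 5.20 ± 0.14 (SD, n = 7), a log2 change of 0.65 (SE 0.08, 95% interval 0.47 to 0.83, adjusted p = 0.00115), or 1.57-fold. By adjusted p the gene stood at rank 12 of 11834. On the linear scale its mean went from 23.6 to 37.0 CPM. Among day 10 glands alone the change was 0.68 (SE 0.12, adjusted p = 0.0191), from 4.55 ± 0.20 (SD, n = 3) to 5.23 ± 0.16 (SD, n = 5), and all 5 KO libraries lay above the 3 WT libraries.

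**Figure D1:**
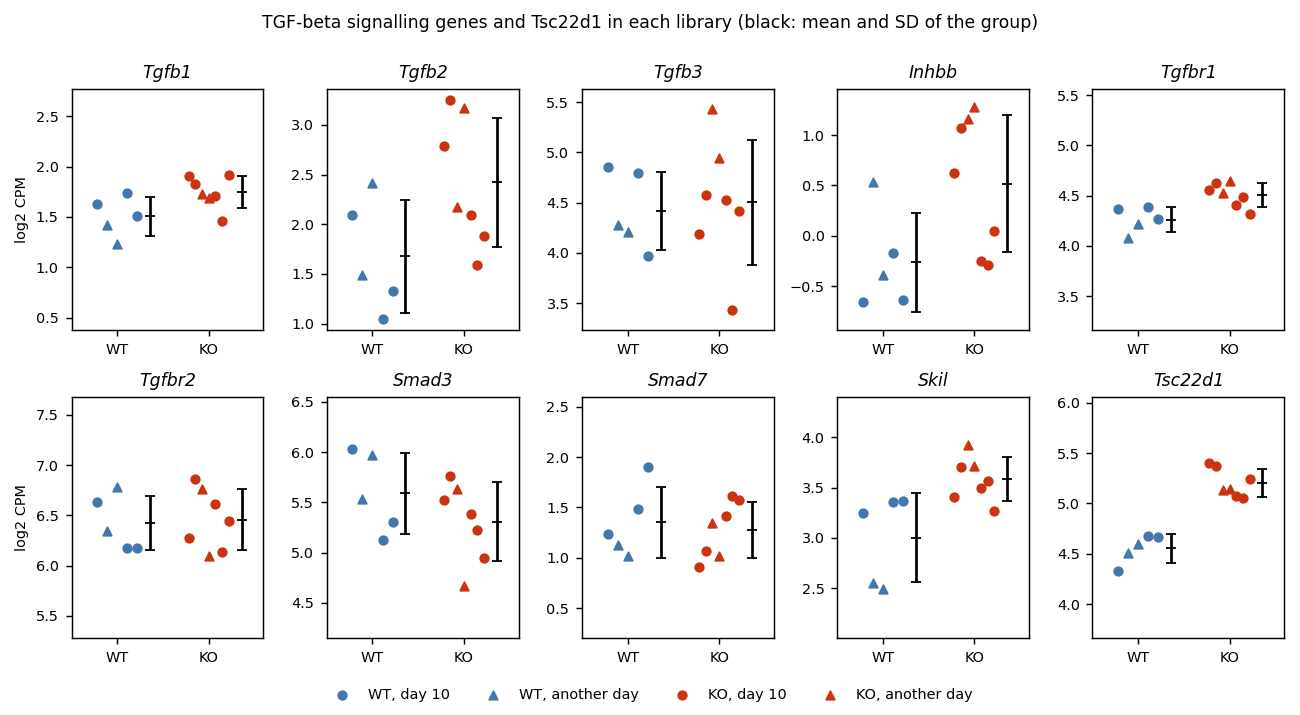
Level of each gene in every library (vertical axis, log2 CPM, each panel with its own range) for WT (blue) and KO (red), with circles for day 10, triangles for other days, and black bars for the group mean and SD. The 7 KO libraries of Tsc22d1 sit between 5.06 and 5.40, all above the 5 WT libraries, while the groups overlap for the other 9 genes.

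Tsc22d1 spans positions 76414961 to 76507765 of chromosome 14 (mm10, plus strand) and has 16 annotated transcripts, 10 of them protein-coding. A table of gene values does not separate the long from the short isoform, so which of them changed was not measured. RefSeq (GRCm38.p6) gives the gene 5 transcription starts with a sequence window. The 250 bases before 2 of these starts overlap no annotated exon of the gene, and they are shown here because Tsc22d1 carries the clearest change. Capitals mark matches, on either strand, to CAGAC (the Smad box) or GGCGC (a GC-rich Smad motif).
Tsc22d1, chr14:76414711-76414960, plus strand: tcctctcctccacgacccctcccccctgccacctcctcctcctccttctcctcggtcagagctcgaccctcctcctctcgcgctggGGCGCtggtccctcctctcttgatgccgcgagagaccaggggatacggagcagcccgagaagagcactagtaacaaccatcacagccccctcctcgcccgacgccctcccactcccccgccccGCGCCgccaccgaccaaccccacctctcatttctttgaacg
Tsc22d1, chr14:76488186-76488435, plus strand: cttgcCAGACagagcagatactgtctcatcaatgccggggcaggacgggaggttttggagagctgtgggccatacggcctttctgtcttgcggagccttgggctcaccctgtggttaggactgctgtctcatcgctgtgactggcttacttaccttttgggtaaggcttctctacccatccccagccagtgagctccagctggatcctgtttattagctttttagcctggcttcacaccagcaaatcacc
The window before the most upstream start holds 2 matches to GGCGC and 0 to CAGAC. The other window, before a start inside the gene, holds 1 match to CAGAC, which begins 245 bases before the start, and 0 to GGCGC. Over all 5 Tsc22d1 windows, 2 held CAGAC and 3 held GGCGC, motifs that 42.2% and 32.0% of all 32851 windows of this length hold. The palindrome GTCTAGAC (0.167% of all windows) and the AP-1 motif TGANTCA (6.75%) had 0 matches in the 12 windows found for the genes. These windows belong to 7 of the 10 genes, not to Tgfb3, Smad7 and Skil. GGCGC can overlap its own reverse complement, and such overlaps were counted as separate matches. These letter matches are a description of the windows.

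The 3 genes whose values, each set against its own WT mean, ran closest to those of Tsc22d1 over the 12 libraries were Cnn2, Zfand2a and St14. Cnn2, an actin-binding calponin, differed from Tsc22d1 by 0.09 log2 on average. Zfand2a, a zinc finger protein induced by stress, differed by 0.09, and St14, the membrane serine protease matriptase, by 0.11. The median gene of the table differed by 0.49, and Tsc22d1 itself lay 0.43 from its own WT mean on average. Among the 3, the change was 0.58 for Cnn2 (adjusted p = 0.00606), 0.63 for Zfand2a (adjusted p = 0.00415) and 0.66 for St14 (adjusted p = 0.00556). The KO libraries took part in the choice of these genes, so a change like that of Tsc22d1 follows from it and is no separate result. The same holds for the closest profiles of Skil and Tgfbr1 below.

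The relatives of Tsc22d1 did not pass the test. Tsc22d2 and Tsc22d4, further genes of the TSC22 domain family, had log2 changes of 0.02 (95% interval -0.27 to 0.30) and 0.00 (-0.23 to 0.24). Tsc22d3, which encodes the glucocorticoid-induced leucine zipper, had -0.69 (SE 0.31, adjusted p = 0.180), with WT at 4.46 ± 0.77 (SD, n = 5) and KO at 3.77 ± 0.39 (SD, n = 7). These relatives were named after their values were seen. Of 8 measured genes of the family and its kinase partners 1 was called (12.5%, beside 9.36% of all genes). It was Oxsr1, a kinase of the ion transport pathway that WNK kinases drive. Oxsr1 rose by 0.68 (SE 0.15, adjusted p = 0.0132), with no overlap between groups, a separation with KO above that 2.69% of all genes showed. The Oxsr1 call held without any 1 of the 12 libraries, but not among day 10 glands (0.69, adjusted p = 0.120). It also ended with a score of basal or macrophage markers as a covariate, where the changes were 0.59 and 0.64 (adjusted p = 0.174 and 0.314).

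Skil lies on chromosome 3 from 31095058 to 31122577. It held 3.25, 2.55, 2.49, 3.35 and 3.37 log2 CPM in WT replicates 1 to 5, and in KO ran from 3.27 through 3.57 to 3.92. WT replicates 2 and 3, the libraries of days 9 and 11, were the low ones, and the other 3 WT libraries reached into the KO range. The means were 3.00 ± 0.44 (SD, n = 5) and 3.58 ± 0.22 (SD, n = 7), a log2 change of 0.58 (SE 0.17, adjusted p = 0.0456). Among day 10 glands the change was 0.17 (SE 0.11, adjusted p = 0.409), from 3.32 ± 0.06 (SD, n = 3) to 3.49 ± 0.16 (SD, n = 5). With lactation day as a numeric term in all 12 libraries it was 0.57 (adjusted p = 0.0528). A straight line in day cannot follow WT values that were low on both day 9 and day 11, so this fit could not take up that pattern. Leaving out any 1 of WT replicates 1 to 3 or KO replicates 1 to 6 ended the call (adjusted p of up to 0.113), and the smallest change, 0.45, came without WT replicate 3. Among the closest profiles were those of Neat1, a nuclear long non-coding RNA, at 0.16 log2 on average, and Blnk, a B cell adaptor, at 0.18. The median gene differed from Skil by 0.54.

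None of the 4 ligand genes passed the test. Tgfb3 (chromosome 12, 86056745 to 86079041) held 4.86, 4.27, 4.21, 4.79 and 3.97 log2 CPM in WT replicates 1 to 5 and ran from 3.44 through 4.52 to 5.43 in KO. Its KO values spanned those of WT on both sides, with 2 of 7 above all WT libraries and 1 below. The log2 change was 0.08 (SE 0.29, 95% interval -0.55 to 0.71, adjusted p = 0.889), so a rise of up to 1.64-fold lies within the interval, as does a fall. Day 10 glands alone gave -0.31 (SE 0.30, adjusted p = 0.605). KO replicate 3, taken on day 8, held the highest value.

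Tgfb2 (chromosome 1, 186622792 to 186705989) held 2.09, 1.49, 2.42, 1.04 and 1.33 log2 CPM in WT and ran from 1.59 through 2.17 to 3.25 in KO. Of the 7 KO libraries 3 lay above all WT libraries, KO replicates 1, 2 and 4. The log2 change was 0.75 (SE 0.32, adjusted p = 0.163). Tgfb1 (chromosome 7, 25687002 to 25705077) held 1.63, 1.42, 1.23, 1.74 and 1.51 in WT and ran from 1.46 through 1.73 to 1.91 in KO, a change of 0.24 (SE 0.12, adjusted p = 0.219). For this ligand too 3 of 7 KO libraries lay above all WT libraries.

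Inhbb, which encodes the beta B subunit of activin B and inhibin B, lies on chromosome 1 from 119415465 to 119422248. It held -0.66, 0.54, -0.39, -0.17 and -0.64 log2 CPM in WT and ran from -0.29 through 0.62 to 1.28 in KO. KO replicates 1 to 4 lay above all WT libraries, while KO replicates 5 to 7 lay among them. The log2 change was 0.78 (SE 0.33, 95% interval 0.09 to 1.48, adjusted p = 0.139). Its mean was 0.88 CPM in WT and 1.57 CPM in KO.

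Per kilobase of its longest annotated coding transcript, Tgfb3 was the most abundant TGF-beta ligand transcript in all 12 libraries. The level was 6.51 ± 1.75 CPM per kilobase in WT (SD, n = 5) and 7.22 ± 3.01 in KO (SD, n = 7). Tgfb1 stood at 1.32 ± 0.18 in WT and 1.55 ± 0.16 in KO, and Tgfb2 at 0.665 ± 0.267 and 1.14 ± 0.515. The ratio of Tgfb3 to Tgfb1 ran from 2.53 to 8.33 over the libraries, and that of Tgfb3 to Tgfb2 from 3.78 to 20.3. Tgfb1 and Tgfb2 changed places between libraries, with Tgfb2 above Tgfb1 in 2 of 12. These ratios use transcript lengths of 2175, 5116 and 3383 bases for Tgfb1, Tgfb2 and Tgfb3, and the transcripts in use in these glands may be shorter.

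Among the receptors, Tgfbr1, the type I receptor kinase (chromosome 4, 47353222 to 47414931), came close to the threshold. It held 4.36, 4.07, 4.21, 4.39 and 4.27 log2 CPM in WT and ran from 4.32 through 4.53 to 4.65 in KO. Of the 7 KO libraries 6 lay above all WT libraries, all except KO replicate 7. The means were 4.26 ± 0.13 (SD, n = 5) and 4.51 ± 0.12 (SD, n = 7), a change of 0.25 (SE 0.08, 95% interval 0.08 to 0.41, adjusted p = 0.0555), or 1.19-fold. It passed after cyclic loess (adjusted p = 0.0497) and without KO replicate 7 (adjusted p = 0.0395), and day 10 glands gave 0.14 (adjusted p = 0.407). Wdr41, Eps15 and Rap2c, the genes of closest profile, differed from it by 0.06, 0.06 and 0.07 log2 on average, against 0.28 for the median gene.

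Tgfbr2, the type II receptor kinase that binds the ligand first (chromosome 9, 116084293 to 116175360), held 6.63, 6.35, 6.78, 6.18 and 6.18 in WT and ran from 6.10 through 6.45 to 6.87 in KO. The groups overlapped nearly throughout. Its change was 0.03 (SE 0.15, 95% interval -0.29 to 0.36, adjusted p = 0.916). The smallness of the estimate does not show that the receptor was unaltered, since a 1.28-fold rise lies within the interval.

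Smad3, the signal-transducing Smad (chromosome 9, 63646767 to 63757994), held 6.03, 5.53, 5.97, 5.12 and 5.30 log2 CPM in WT and ran from 4.67 through 5.39 to 5.76 in KO. It was the member of lowest change, -0.28 (SE 0.21, 95% interval -0.73 to 0.17, adjusted p = 0.411). Of the 7 KO libraries 2 lay below all WT libraries. Smad7, the inhibitory Smad that TGF-beta itself induces (chromosome 18, 75367529 to 75395935), held 1.23, 1.13, 1.02, 1.49 and 1.90 in WT and ran from 0.90 through 1.35 to 1.61 in KO. Its change was -0.08 (SE 0.18, 95% interval -0.46 to 0.30, adjusted p = 0.822).

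**Figure D2:**
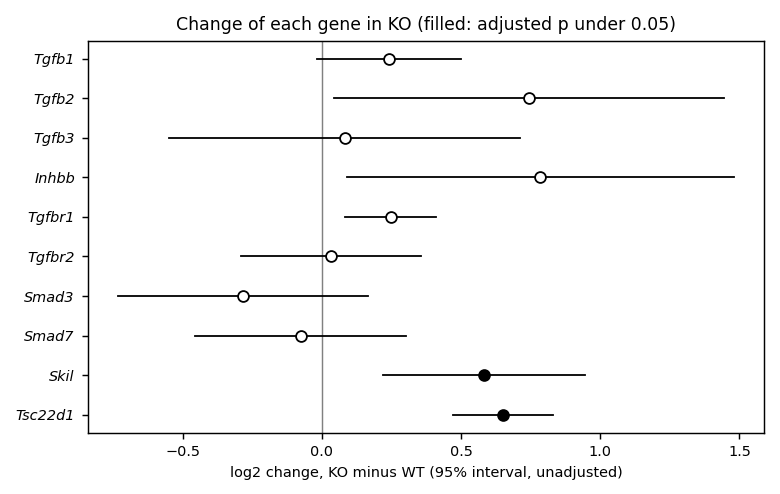
Log2 change of each gene, KO minus WT (horizontal axis), with its unadjusted 95% interval (line); filled circles passed an adjusted p of 0.05. Tsc22d1 at 0.65 has the interval farthest from 0, and the intervals of Tgfb2 and Inhbb are the widest on the side above 0.

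Within the KO group the values of several members split the libraries alike. KO replicates 1 to 4 held the 4 highest values of Tgfb2, Inhbb and Tgfbr1, and the 4 lowest values of Smad7. The same 4 libraries had the highest approximate depth of the group, at 26.2 to 34.7 (1e6 reads), against 23.2 to 24.7 in KO replicates 5 to 7, and its part in these values was not tested. Tgfb1, Tgfb3, Tgfbr2, Smad3, Skil and Tsc22d1 did not follow that split, and Tsc22d1 had its highest KO values in replicates 1, 2 and 7. The split was noticed after the values were seen.

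The wider pathway was read from 8 lists by role, of which 106 of 142 genes were in the table. Of these 12 were higher in KO, 2 were lower and 92 did not pass. That is 13.2% called, beside 9.36% of all genes, and the median change was 0.08. Without WT replicate 1 the count fell to 4 genes, without WT replicate 5 to 5, without WT replicate 4 to 7, and without WT replicate 3 or KO replicate 1 to 9. Day 10 glands alone gave 5 calls. Of the 14 genes, Fkbp1a, Klf10, Tagln and Acta2 passed there too and the other 10 did not. With the basal or the macrophage covariate 0 of the 106 passed in limma (22 and 9 at an unadjusted p under 0.05). Those covariates left 47 and 12 of all 11834 genes called. Over all 12 libraries, 6 of the 106 had all KO values above all WT values and 1 had them below. Such separation held for 2.69% and 2.74% of all genes.

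Genes commonly used as TGF-beta targets held 7 of the 12 rises. Of 28 measured targets 7 were higher, 0 were lower and 21 did not pass, with a median of 0.34. Over all genes 4.84% were called higher and 4.52% lower. At an unadjusted p under 0.05 in limma, 8 targets were higher and 0 lower, beside 12.2% of all genes higher and 14.4% lower. The authors' deposited table has 7 past 0.05, all higher. Tgfbi, a secreted matrix protein named for its induction by TGF-beta, rose by 0.90 (SE 0.17, adjusted p = 0.00606), WT lying at 2.32 ± 0.16 (SD, n = 5) and KO at 3.21 ± 0.39 (SD, n = 7). Junb, an AP-1 transcription factor, rose by 1.29 (SE 0.25, adjusted p = 0.00806). Its level was low, with means of 0.86 CPM in WT and 2.20 CPM in KO, and a filter at a mean of 1 log2 CPM left Junb out. The groups did not overlap for either gene. Of the 28 targets 3 had all KO values above all WT values, beside 2.69% of all genes. The Tgfbi and Junb calls held without any 1 of the 12 libraries. Neither gene passed among day 10 glands (0.74 and 1.14, adjusted p = 0.0666 and 0.0817). Neither passed with the basal covariate (0.87 and 1.38, adjusted p = 0.0916 and 0.0814) or with the macrophage covariate (0.44 and 0.76, adjusted p = 0.401 and 0.409). Lox, the collagen cross-linking lysyl oxidase, rose by 0.84 (SE 0.20, adjusted p = 0.0206), and its adjusted p was 0.0540 once WT replicate 5 was left out. Klf10, the TGF-beta inducible early gene, rose by 0.73 (SE 0.20, adjusted p = 0.0326). The Klf10 call ended without any 1 of WT replicates 1, 3, 4 and 5 or KO replicates 2 and 3 (adjusted p of up to 0.0840).

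Tagln and Acta2, actin cytoskeleton genes of contractile cells, rose by 0.52 (SE 0.12, adjusted p = 0.0194) and 0.51 (SE 0.13, adjusted p = 0.0235). Tagln lost its call without WT replicate 1 (adjusted p = 0.0550). Acta2 lost it without WT replicate 1, 4 or 5, with an adjusted p of up to 0.0694. Both genes are also basal and myoepithelial markers, a list of which 6 of 10 rose and 0 fell (4.84% and 4.52% of all genes). That list summed to between 517 and 695 CPM in WT and between 582 and 897 CPM in KO. With a score of the other basal markers as a covariate the changes of Tagln and Acta2 were 0.20 and 0.19 (adjusted p = 0.339 and 0.395). Vim, an intermediate filament gene of mesenchymal cells that falls outside the naming rule and was chosen with its values in view, rose by 0.62 (SE 0.18, adjusted p = 0.0440). Leaving out any 1 of 8 libraries ended the Vim call, WT replicates 1, 3, 4 and 5 and KO replicates 1, 2, 4 and 7 (adjusted p of up to 0.112).

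Other well-known targets did not pass, and they are named here after their values were seen. Ctgf, the connective tissue growth factor, had a change of 0.88 (SE 0.50, adjusted p = 0.288). Id1 and Id3, inhibitors of differentiation that the bone morphogenetic protein arm induces, had -0.18 (SE 0.27) and 0.11 (SE 0.21).

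**Figure D3:**
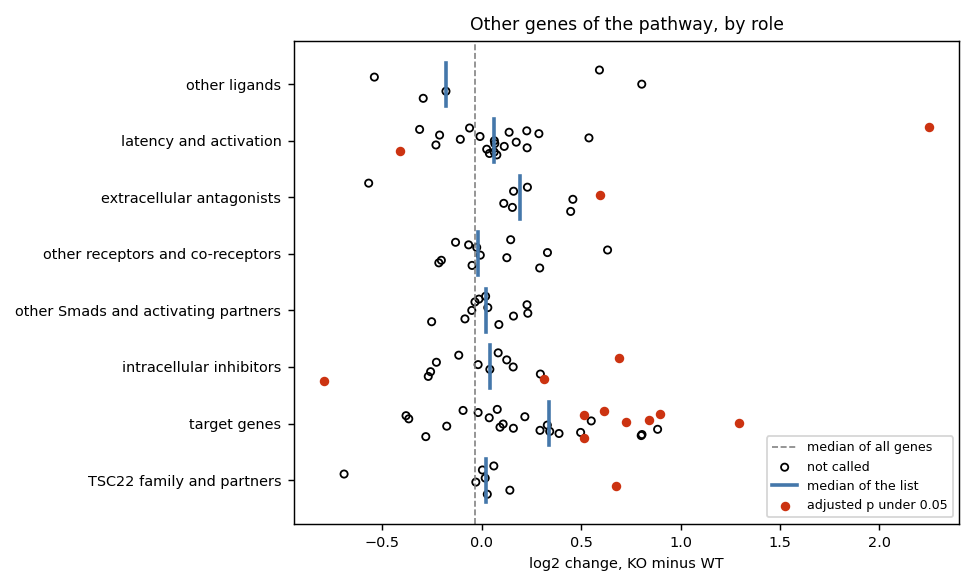
Log2 change in KO (horizontal axis) of each measured gene of the 8 pathway lists (rows), with red points for genes past an adjusted p of 0.05, blue bars for the list medians and a dashed line for the median of all genes. The target genes hold 7 of the called genes and have the highest median, 0.34, while 3 lists hold none.

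Of 21 measured genes of ligand latency and activation 1 rose and 1 fell, which is 9.52% called, close to the 9.36% of all genes. Thbs1, which encodes thrombospondin 1, an activator of latent TGF-beta, rose by 2.25 (SE 0.53, adjusted p = 0.0263), WT lying at 2.47 ± 0.66 (SD, n = 5) and KO at 4.72 ± 1.09 (SD, n = 7), and 6 of 7 KO libraries lay above all WT libraries. Its call ended without any 1 of WT replicates 1, 2, 4 and 5 or KO replicate 1, with an adjusted p of up to 0.0660. Furin, the protease that cleaves TGF-beta precursors, fell from 6.28 ± 0.18 to 5.87 ± 0.22, a change of -0.41 (SE 0.11, adjusted p = 0.0309). That call ended without any 1 of WT replicates 1, 2, 3 and 5 or KO replicate 1 (adjusted p of up to 0.0833).

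Inhibitors of the pathway gave 2 of 13 higher and 1 lower (23.1% called, beside 9.36% of all genes), with a median of 0.04. Tgif1, a homeobox repressor that binds Smads, rose by 0.69 (SE 0.17, adjusted p = 0.0234), and its adjusted p was 0.0614 or 0.0510 once WT replicate 1 or 3 was left out. Fkbp1a, a prolyl isomerase that binds type I receptors, rose by 0.31 (SE 0.08, adjusted p = 0.0224), a call that ended without WT replicate 1, 4 or 5 (adjusted p of up to 0.0538). Bambi, a decoy receptor of the membrane, fell in KO, its change being -0.79 (SE 0.24, adjusted p = 0.0472). Its level was low, with means of 1.09 CPM in WT and 0.65 CPM in KO, and a filter at a mean of 1 log2 CPM left Bambi out. The groups did not overlap for these 3 of the 13 genes, 2 with KO above and 1 with KO below, beside 2.69% and 2.74% of all genes. Bambi kept its call only without KO replicate 3 or KO replicate 5, and its adjusted p was up to 0.103 without 1 of the other libraries. Ski, the relative of Skil, had 0.16 (SE 0.07, adjusted p = 0.151).

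Extracellular antagonists gave 1 of 8 higher and 0 lower in limma, beside 4.84% and 4.52% of all genes. There 4 were higher and 1 was lower at an unadjusted p under 0.05 (12.2% and 14.4% of all genes). The authors' deposited table also has 1 call in this list, beside 9.64% of all genes, but for a different gene. Htra1, a secreted serine protease that antagonizes TGF-beta family ligands, rose by 0.60 (SE 0.18, adjusted p = 0.0471, or 0.0600 in the authors' deposited table). The Htra1 call held without WT replicate 3, KO replicate 3 or KO replicate 6 and ended without any 1 of the other 9 libraries, with an adjusted p of up to 0.110.

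Other receptors and co-receptors gave 0 called of 12 in limma and 0 in the authors' deposited table, with 3 at an unadjusted p under 0.05, a cut that 26.6% of all genes passed. The smallest adjusted p were those of Bmpr2, a type II receptor of bone morphogenetic proteins, with a change of 0.33 (SE 0.12, adjusted p = 0.0953), and Cd109, a co-receptor that restrains TGF-beta signalling, with 0.63 (SE 0.24, adjusted p = 0.104). Bmpr2 passed without KO replicate 6 (adjusted p = 0.0257) and Cd109 without KO replicate 3 (adjusted p = 0.0434). Other Smads and their activating partners gave 0 called of 11 in limma and 0 in the authors' deposited table, with 2 at an unadjusted p under 0.05. Dab2, an adaptor between receptors and Smads, had -0.25 (SE 0.11, adjusted p = 0.165), and Rnf111, a ubiquitin ligase that removes Skil protein, had 0.16 (SE 0.07, adjusted p = 0.169). Smad2 and Smad4, named after their values were seen, had -0.05 (95% interval -0.27 to 0.17) and 0.03 (-0.13 to 0.20). Other ligands gave 0 called of 5 by both, and 1 at an unadjusted p under 0.05, with Gdf5 at 0.80 (SE 0.33, adjusted p = 0.133) and Lefty1 at -0.54 (SE 0.39, adjusted p = 0.406).

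Markers of further cell types were counted in the same way, where 9.36% of all genes were called, 4.84% higher and 4.52% lower. Of 10 macrophage markers 4 rose and 0 fell, among them Cx3cr1, C1qb and Cd68, and the list summed to between 53.3 and 72.6 CPM in WT and between 62.0 and 91.9 CPM in KO, where 6 of 7 sums exceeded every WT sum. Of 12 skeletal muscle markers 0 were called, with a median change of 1.20 and sums of 75.5 to 527 CPM in WT and 110 to 1808 CPM in KO. Fibroblast markers gave 1 of 8 higher (Dpt, adjusted p = 0.0499 in limma) and 0 called in the authors' deposited table. Their sums were 147 to 216 CPM in WT and 151 to 407 CPM in KO. Endothelial markers gave 1 of 8 lower, the receptor Kdr. Secretory epithelial markers gave 3 of 9 higher, Krt19, Krt8 and Epcam, and 0 lower. Adipocyte markers gave 1 of 8 higher, the hormone gene Lep, and 5 pericyte markers gave 0 called. The part of these cell types in the values of the TGF-beta genes was not tested beyond the covariates that follow.

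With a marker score as a covariate, the change of Tsc22d1 was 0.60 for muscle (adjusted p = 0.00796), 0.49 for basal markers (adjusted p = 0.0391) and 0.55 for macrophage markers (adjusted p = 0.108). With the macrophage score 12 of all 11834 genes were called. For Skil the changes were 0.57, 0.86 and 0.26 for muscle, basal and macrophage markers, and none passed.

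**Figure D4:**
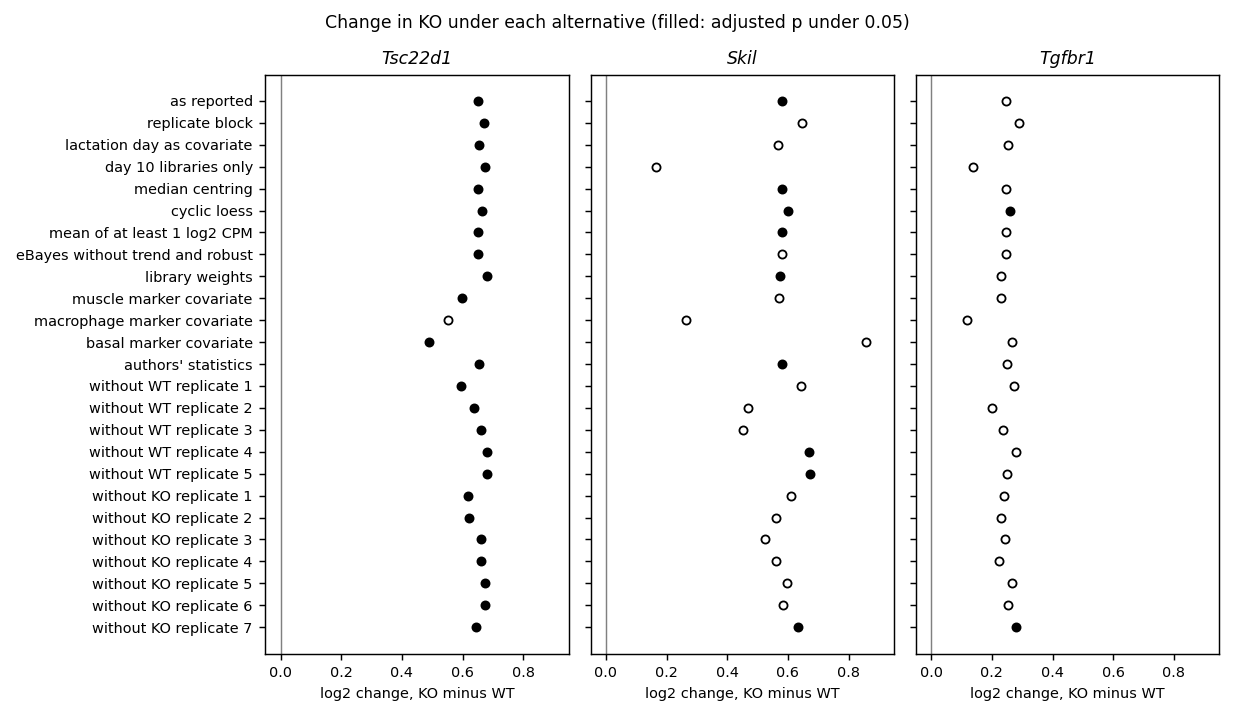
Log2 change in KO (horizontal axis) of Tsc22d1, Skil and Tgfbr1 as reported and under each alternative or with 1 library left out (rows); filled circles passed an adjusted p of 0.05. Tsc22d1 stays between 0.49 and 0.68 and is open only with the macrophage covariate, while Skil falls to 0.17 in day 10 libraries.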

How the data were processed

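PolyA RNA of 12 glands was measured. The authors deposited 1 table of 11834 genes with log2 CPM per library, their log2 fold change, signed fold change, moderated t statistic (a score) and p-value with its adjusted p-value. Per the submitters' processing notes, the tools were limma 3.34.5, RSEM 1.3.0, STAR 2.5.2b, Trimmomatic 0.33 and bcl2fastq 2.17, and the builds mm10 and hg19 are named. Annotation and gene filter are not given in the sources used here. All libraries share 1 distribution, summing to between 988803 and 988808 CPM each, as quantile normalization gives, so a level is a rank set on a common scale. Total counts are not in the table. Approximate depth came from the median step between values of 0.5 to 8 CPM held by 8 or more genes of 1 library, and is rough.

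The log2 values of all 12 libraries were fitted by genotype with limma 3.58.1 in R 4.3.3 (eBayes with its trend and robust settings on). P-values, two-sided, had the Benjamini-Hochberg adjustment over all 11834 genes and were called under 0.05. On simulated data of this comparison with 11834 genes 79 of 100 genes simulated to change by 1 (log2) were called, as were 43 of 100 changed by 0.5, with 7 false calls. Each gene was drawn independently from its own mean and residual SD. Effects that many genes of a library share were not simulated, so these counts do not cover them. Each library is a mouse, and p-values set the difference of the groups against the spread between mice within a group, which includes differences of lactation day.

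The 10 genes, the lists and the rules were chosen with earlier results of these data known. Named genes were the 10 genes, Btn1a1, up to 6 called genes of each pathway list (or, without a call, the 2 of smallest adjusted p), up to 3 called genes of each marker list, and the 3 closest profiles of Tsc22d1, Skil and Tgfbr1 by mean absolute difference. Further genes are named as chosen with their values seen. Some genes that these rules reach are not reported here. Lists are described by counts and medians, without a set test. Coordinates are from GENCODE M21 (mm10), joined by symbol, and promoter windows from RefSeq. Python 3.11.15 and matplotlib 3.10.9 joined tables and drew figures. The alternatives were a replicate block, lactation day, day 10 alone, median centring, cyclic loess, a filter at a mean of 1 log2 CPM, eBayes without options, library weights, 3 marker covariates, the authors' statistics, a threshold of 0.01 and leaving out each library.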

Additional observations from a re-analysis of the deposited data

Results flagged for a closer look

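Among 60 sets of values (the members, Btn1a1 and the named pathway genes, in WT and in KO) 3 held a library far from the others of its group by Dixon's ratio at the 95% level, and chance gives about 1 in 20 sets. Bambi held -1.50 log2 CPM in KO replicate 3, where the other KO libraries lay between -0.82 and -0.37. Oxsr1 held 4.87 log2 CPM in KO replicate 2, where the others lay between 3.84 and 4.20. Btn1a1 held 11.23 log2 CPM in WT replicate 3, where the others shared 1 value, 11.03. The libraries share 1 distribution, so equal ranks give equal values. With the others tied the ratio is 1 whatever the distance, so this flag does not show a library that stands apart. None of the 10 genes followed here held such a library.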

How the results depend on the processing

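The number of the 10 genes called fell from 2 to 1 with a lactation day covariate, in day 10 libraries, with eBayes without trend and robust options, with the muscle or basal covariate or at a threshold of 0.01, and to 0 with the macrophage covariate (limma, 1 of 10 at an unadjusted p under 0.05). Without 1 library it ran from 1 to 3. It was 1 without any 1 of WT replicates 1 to 3 or KO replicates 1 to 6, and Tsc22d1 kept its call in each of the 12 fits. The pathway lists, with 14 called, gave 5 for day 10, 3 with the muscle covariate, 2 at 0.01, and 0 with the macrophage or the basal covariate (9 and 22 of 106 at an unadjusted p under 0.05), and 4 to 16 without 1 library. Over all genes the 1108 calls became 268 for day 10, 320, 12 and 47 with the muscle, macrophage and basal covariates, and 249 at 0.01, and ran from 559 to 1327 without 1 library, with 559, 644, 725, 696 and 724 without WT replicates 1, 2, 3 and 5 and KO replicate 1. The cause of these changes was not tested.

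Signs turned for genes that were not called. Tgfb3 went to -0.31 for day 10, -0.0048 with library weights, -0.11 and -0.65 with the muscle and macrophage covariates, and ran from -0.0725 to 0.26 without 1 library. Smad7 went to 0.0797 and 0.0704 with the macrophage and basal covariates, and ran from -0.16 to 0.0601 without 1 library. Tgfbr2 ran from -0.0355 to 0.12 without 1 library, and Lefty1 went to 0.34 with the macrophage covariate.

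The replicate block left 2 of the 10 called, Tsc22d1 at 0.67 (adjusted p = 0.0102) and Inhbb at 1.04 (adjusted p = 0.0372), while Skil at 0.65 did not pass (adjusted p = 0.0928). Replicate numbers 6 and 7 exist only in KO, so KO replicates 6 and 7 did not enter the changes of this fit. For Inhbb those libraries held -0.29 and 0.05 log2 CPM. The block gave 14 calls in the pathway lists and 1083 over all genes. Same-numbered libraries deviated together with a correlation from -0.17 to 0.21 in 5 pairs, above 0.1 in 1, so the numbers are not shown to pair the mice. No pseudocount enters log2 values, and no fit could be had without the authors' gene filter.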
